A study of Drosophila melanogaster with 12 samples.

Results

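Cytochrome P450 genes of Drosophila melanogaster were measured in heads of flies from experimentally evolved populations. The genes were taken as the rows of the deposited table whose FlyBase symbol begins with Cyp and a digit, leaving out Cyp4d14, Cyp4d21 and Cyp4g1. That rule found 77 rows, and 2 of these, Cyp1 and Cyp40, are peptidyl-prolyl isomerases (cyclophilins) and not P450 enzymes. The account below therefore covers the 75 P450 genes among the 11236 genes of the table, 2 of which are pseudogenes (Cyp6a15Psi and Cyp6t2Psi).

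The 4 groups were monogamous males, polygamous males, monogamous females and polygamous females, with 3 libraries each. The flies came from 3 populations bred under monogamy and 3 bred under polygamy for 117 generations, and each population gave 1 male and 1 female library. All populations then spent 1 generation in shared rearing conditions, and the flies were virgins kept with their own sex and were 4 days old. How many flies were pooled in a library is not given in the sources used here. With 1 library per population and sex, the spread between libraries of a group includes that between populations. The main fit used 1 spread per gene, shared by the 4 groups. Its p-values for mating system in males therefore also rest on the spread of the female libraries. The main fit did not pair the male and female library of a population. No strain name, allele or drug treatment is given, and no unselected ancestor was analysed here.

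P450 enzymes hold a heme group and insert oxygen into their substrates, which include hormones, fatty acids, cuticular lipids, plant toxins and insecticides. In insects the family falls into 4 clans, named CYP2, CYP3, CYP4 and mitochondrial after relatedness and site. Hormone metabolism is known mostly from the CYP2 and mitochondrial clans, and insecticide metabolism mostly from the CYP3 and CYP4 clans. In the fly head P450 genes are known from fat body, antennae, glia, cuticle-forming cells and the brain. The 75 genes comprised 4 of the CYP2 clan, 35 of the CYP3 clan, 27 of the CYP4 clan and 9 of the mitochondrial clan. They lay on chromosome arms 2R (33), 3R (13), X (12), 2L (11) and 3L (6). Many stood side by side: 43 of the 75 fell into 16 runs of Cyp-named genes with at most 1 other coding gene between neighbours. The largest run held 8 of the 75.

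The deposited values are reads per gene scaled to nearly equal library totals, called the signal (normalised read count) here. The libraries held 34558521 to 52282995 reads when the scaling was undone, and all 75 genes lay above 0 in all 12 libraries. All 8 head markers were found, among them elav, nSyb and Syt1 of neurons. The female library of monogamous population 1 stood apart: its elav signal was 2523, against 8125 to 9350.1 in polygamous females, and it lay above or below all other 5 female libraries for 49 of 74 P450 genes (66.2%) and for 77.5% of all genes tested. Counts that moved without it are given both ways. Sums of 7 fat body markers were 167725 to 171263 in monogamous males, 118001 to 162569.6 in polygamous males, 2018516 to 2812967 in monogamous females and 1268022 to 1531642 in polygamous females. Of these, the yolk protein gene Yp1 had 1524 to 1797 in monogamous males, 1858 to 2129.8 in polygamous males, 830706 to 1136750 in monogamous females and 502613 to 601797 in polygamous females. In whole heads fewer cells of a type and less RNA per cell cannot be told apart.

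P450 genes together took a small share of the signal, largest in monogamous males. It was 0.442 ± 0.0105% in monogamous males, 0.403 ± 0.0162% in polygamous males, 0.386 ± 0.00487% in monogamous females and 0.362 ± 0.00326% in polygamous females (SD, n = 3 each). Without the single gene Cyp313a1 the share was 0.359% in monogamous males, 0.348% in polygamous males, 0.374% in monogamous females and 0.350% in polygamous females. By mean signal over the 12 libraries, 10 genes lay under 100, 33 from 100 to under 1000, 27 from 1000 to under 10000 and 5 at 10000 or more. Those 5 were Cyp6g1, Cyp313a1, Cyp6w1, Cyp6d5 and Cyp28d1.

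Levels of different genes were compared per kilobase of exon, with lengths from a later annotation than the one used for counting. Cyp313a1 of the CYP4 clan (11519 per kb) and Cyp6g1 of the CYP3 clan (11049 per kb) had the highest mean levels. Cyp6d5 followed with 8936 per kb, Cyp6w1 with 7068 per kb and Cyp28d1 with 6420.1 per kb. The median level per kb was 218 in the CYP2 clan, 523 in the CYP3 clan, 330.2 in the CYP4 clan and 214 in the mitochondrial clan. Each clan spanned a wide range, from 15.9 to 11049 per kb in the CYP3 clan and from 4.33 to 11519 per kb in the CYP4 clan. The lowest gene, Cyp313a3, had a mean signal of 7.70 and was left out of the tests, which kept genes with a mean of 10 or more. Cyp4s3 (10.6) and Cyp4d1 (10.8) lay just above that limit, so 74 P450 genes were tested among 10568 genes.

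**Figure D1:**
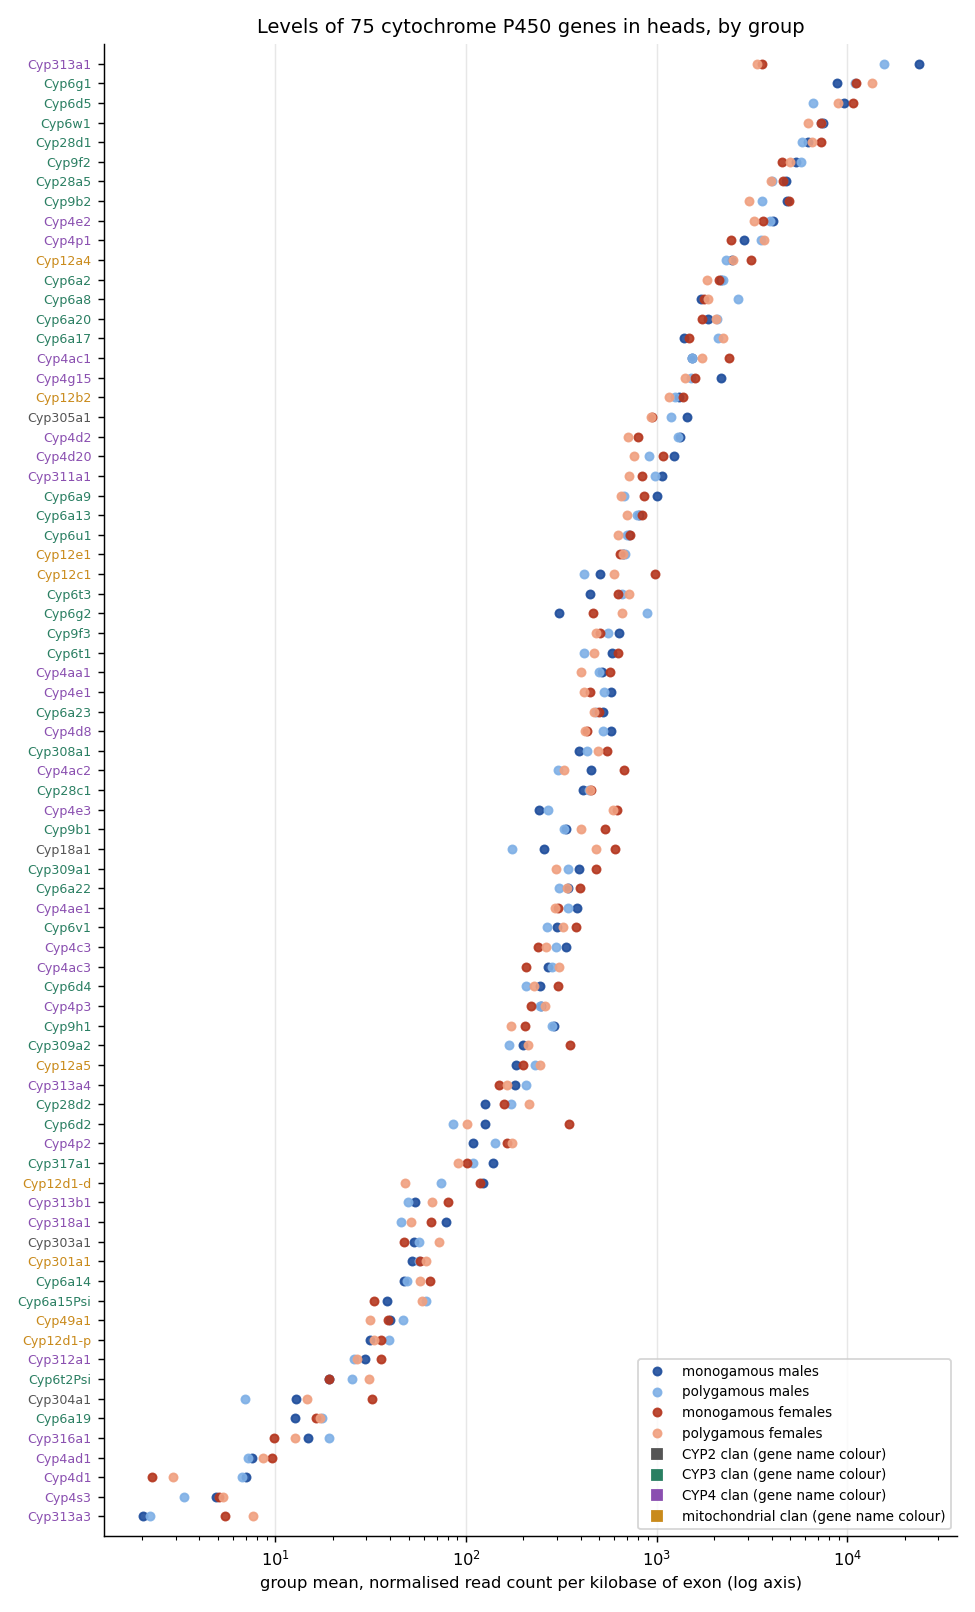
Group means of the signal per kilobase of exon (log axis) for the 75 P450 genes, highest at the top, with 1 point per group and gene names coloured by clan. Cyp313a1, Cyp6g1 and Cyp6d5 stand at the top, Cyp313a3 at the bottom, and the groups lie farthest apart for Cyp313a1 among the abundant genes.

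Insecticide resistance is the best known role of several of the abundant genes. Cyp6g1, whose raised transcription gives resistance to DDT and neonicotinoids, had a signal of 16153, 22726 and 16158 in monogamous males and 19359.8, 30118 and 18445 in polygamous males. In females it had 15596, 25533 and 27564 under monogamy and 17741, 38694 and 26894 under polygamy. In each sex the second polygamous population was the highest of the 6 and the groups overlapped. Its neighbour Cyp6g2 shares exon positions with it on the opposite strand, and whether counting used strand is not given in the sources used here, so their reads may not be fully separated. Cyp6w1, which is raised in DDT-resistant strains, averaged 17869 ± 1046 in monogamous males, 17396 ± 3176 in polygamous males, 17488 ± 1018 in monogamous females and 14872 ± 1204 in polygamous females (SD, n = 3 each). Cyp6a2, also raised in DDT-resistant strains, averaged 3632 ± 303.4 in monogamous males, 3739.5 ± 498 in polygamous males, 3559.9 ± 679 in monogamous females and 3061 ± 275 in polygamous females. Cyp12a4, a mitochondrial P450 linked to lufenuron resistance, averaged 4233 ± 189 in monogamous males, 3926 ± 1229 in polygamous males, 5318 ± 856 in monogamous females and 4247 ± 1340.3 in polygamous females. For Cyp6w1, Cyp6a2 and Cyp12a4 alike, no difference between mating systems or sexes passed the limma test.

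Genes with developmental or neural roles spanned low to high levels. Cyp4g15, a CYP4G enzyme known from the nervous system, had 1668 per kb. Cyp18a1, which inactivates the moulting hormone ecdysone by 26-hydroxylation, had 379 per kb. Cyp303a1, needed for sensory bristle development, had 57.4 per kb, and Cyp301a1, needed for the adult cuticle, had 56.9 per kb. Cyp303a1 shares exon positions with heix and Cyp301a1 with Ak6, each on the opposite strand. Cyp4g15 averaged 5684 ± 625 in monogamous males, 3977 ± 48.6 in polygamous males, 4172 ± 775 in monogamous females and 3724 ± 337 in polygamous females (SD, n = 3 each). Cyp301a1 averaged 101 ± 3.81 in monogamous males, 109 ± 8.66 in polygamous males, 112 ± 5.69 in monogamous females and 119 ± 13.1 in polygamous females. Cyp303a1 averaged 148 ± 13.8 in monogamous males, 158 ± 8.94 in polygamous males, 132 ± 75.4 in monogamous females and 202 ± 19.8 in polygamous females. In Cyp303a1 the female library of monogamous population 1 had 47.0, against 135 or more in every other library.

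The comparison of the sexes set the 6 male against the 6 female libraries. Of the 74 P450 genes, 24 passed the limma test (32.4%, Benjamini-Hochberg adjusted p under 0.05), against 29.5% of all genes tested. The P450 genes divided evenly, with 12 higher in males and 12 lower. Among all genes 20.2% were called higher in males and 9.27% lower. Without the female library that stood apart 29 P450 genes were called (39.2%, 16 higher and 13 lower), against 51.7% of all genes, 40.2% higher and 11.4% lower, so that the P450 share lay above that of all genes with this library and below it without. The median log2 difference, male minus female, was 0.03 over the P450 genes and 0.13 over all genes. The split depended on scaling. After TMM rescaling 8 P450 genes were higher and 17 lower, against 8.03% higher and 14.5% lower among all genes, whose median was then 0.02. After upper-quartile rescaling 3 were higher and 15 lower, against 4.79% higher and 12.2% lower among all genes, whose median was then -0.03. No called gene changed sign under any of 15 alternatives. All 8 head markers had differences above 0 on this male-minus-female scale, 3 of them called. Of 7 fat body markers, yolk protein genes among them, 6 had differences below 0, 4 of them called. The other, to, was called higher in males (log2 0.42). The part of these markers in the P450 differences was not tested.

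Cyp313a1, a CYP4 clan gene, differed most between the sexes. Its signal in males was lowest 23712, median 30605 and highest 43442, and in females lowest 3516, median 5743 and highest 7162 (n = 6 each). Every male library lay above every female library. The difference was 5.67-fold (log2 fold change 2.50, SE 0.17, limma adjusted p = 1.1e-05). It made up 12.5% to 21.6% of the P450 signal in male libraries and 1.95% to 4.05% in female libraries.

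Of the other genes higher in males, Cyp4d2 and Cyp9h1 were the ones that stayed called under all 15 alternatives, as Cyp313a1 did. Cyp4d2, on X, was lowest 2873, median 3316 and highest 3512 in males and lowest 1626, median 1860.4 and highest 2126 in females. Its male and female libraries did not overlap (log2 fold change 0.80, SE 0.06, limma adjusted p = 2.6e-05). Cyp9h1 was lowest 419, median 447 and highest 545 in males and lowest 240.2, median 292 and highest 382 in females. Again no male library fell among the female ones (log2 fold change 0.63, SE 0.12, limma adjusted p = 0.0038).

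Cyp18a1 was the gene most clearly lower in males. Its signal was lowest 481, median 611 and highest 858 in males and lowest 1359.5, median 1659 and highest 1960 in females (n = 6 each). The ranges did not overlap (log2 fold change -1.35, SE 0.08, limma adjusted p = 4.8e-06). Cyp4e3, known for a part in permethrin tolerance in the Malpighian tubule, was lowest 342, median 479 and highest 601 in males and lowest 686, median 1036 and highest 1496 in females, without overlap (log2 fold change -1.22, SE 0.22, limma adjusted p = 0.0025). Cyp9b1, which shares exon positions with esn on the opposite strand, was lowest 531, median 562 and highest 677 in males and lowest 689, median 769 and highest 1151 in females (log2 fold change -0.49, SE 0.09, limma adjusted p = 0.0040). Its libraries did not overlap either, while esn had a log2 difference of 0.23 in the other direction. Cyp12c1 of the mitochondrial clan (log2 fold change -0.73, SE 0.13, limma adjusted p = 0.0026) and Cyp6v1 on X (log2 fold change -0.30, SE 0.07, limma adjusted p = 0.0072) were lower in males with overlapping libraries. Like Cyp18a1, Cyp4e3 and Cyp9b1, they stayed called under all 15 alternatives. In all, males and females did not overlap for 7 of the 74 P450 genes (9.46%), 4 higher and 3 lower, against 20.2% of all genes, 15.2% higher and 4.99% lower. Without the library that stood apart these were 9 P450 genes (12.2%) and 27.4% of all genes. The fourth higher gene was Cyp4e1, with lowest 923, median 972 and highest 1060.4 in males and lowest 646, median 784 and highest 824 in females.

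The other called genes had smaller or less stable differences. Those higher in males were Cyp4d1 (1.25), Cyp305a1 (0.48), Cyp311a1 (0.41), Cyp4d8 (0.37), Cyp4e1 (0.36), Cyp317a1 (0.36), Cyp4c3 (0.33), Cyp4ae1 (0.28) and Cyp4g15 (0.28), with log2 differences in parentheses and limma adjusted p from 0.0021 to 0.043. Those lower in males were Cyp304a1 (-1.06), Cyp6d2 (-0.84), Cyp313b1 (-0.48), Cyp4ac1 (-0.41), Cyp28d2 (-0.33), Cyp308a1 (-0.32) and Cyp6t3 (-0.31), with adjusted p from 0.010 to 0.040. Cyp6d2 is known for camptothecin resistance and Cyp6t3 for a step of ecdysone synthesis. Cyp4d1 lay near the lower limit of the test, and Cyp4e1, Cyp317a1, Cyp6d2 and Cyp6t3 share exon positions with other genes. Without the second polygamous population 15 P450 genes were called (20.3%), against 16.2% of all genes. With the population as a block 32 were called (43.2%, 14 higher and 18 lower), against 29.7% of all genes.

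The calls between the sexes are given here by clan, with no test between clans. Among all genes 29.5% were called, 20.2% higher in males and 9.27% lower. In the CYP4 clan 9 of 26 tested genes were higher in males and 3 lower (46.2% called). In the CYP3 clan 2 of 35 were higher and 6 lower (22.9%). In the CYP2 clan 1 of 4 was higher and 2 were lower, and in the mitochondrial clan none of 9 was higher and 1 was lower. Among the 12 P450 genes on X, 5 were higher in males and 3 lower (66.7% called). Among the 62 elsewhere 7 were higher and 9 lower (25.8%). Of all 1678 tested genes on X, 373 were higher in males and 218 lower (35.2% called). After upper-quartile rescaling the 9 higher genes named in the previous paragraph were no longer called.

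**Figure D2:**
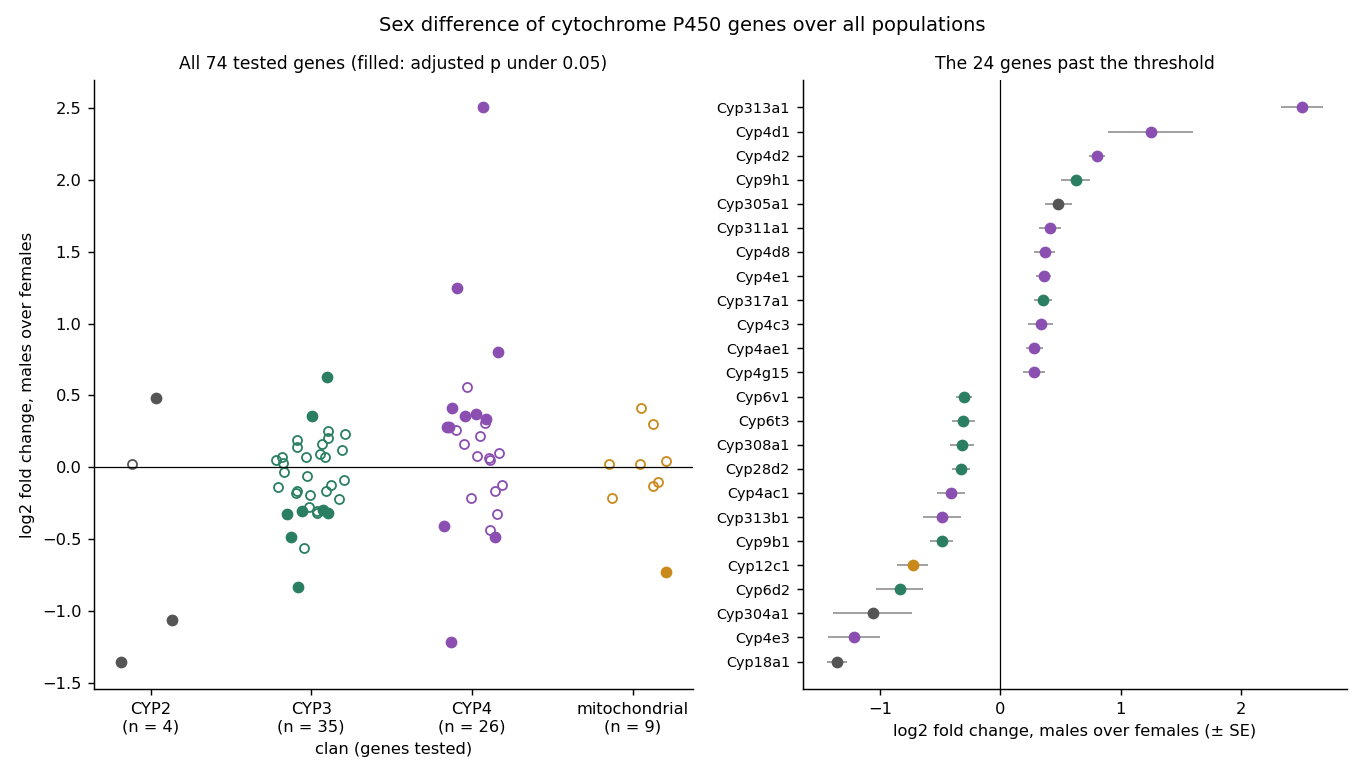
Log2 fold change of males over females for the 74 tested P450 genes by clan (left, filled where called) and for the 24 called genes with bars of 1 SE (right). Cyp313a1 at 2.50 is the highest and Cyp18a1 at -1.35 the lowest, and 9 of the 12 genes called higher belong to the CYP4 clan. After upper-quartile rescaling 3 P450 genes in all were called higher.

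**Figure D3:**
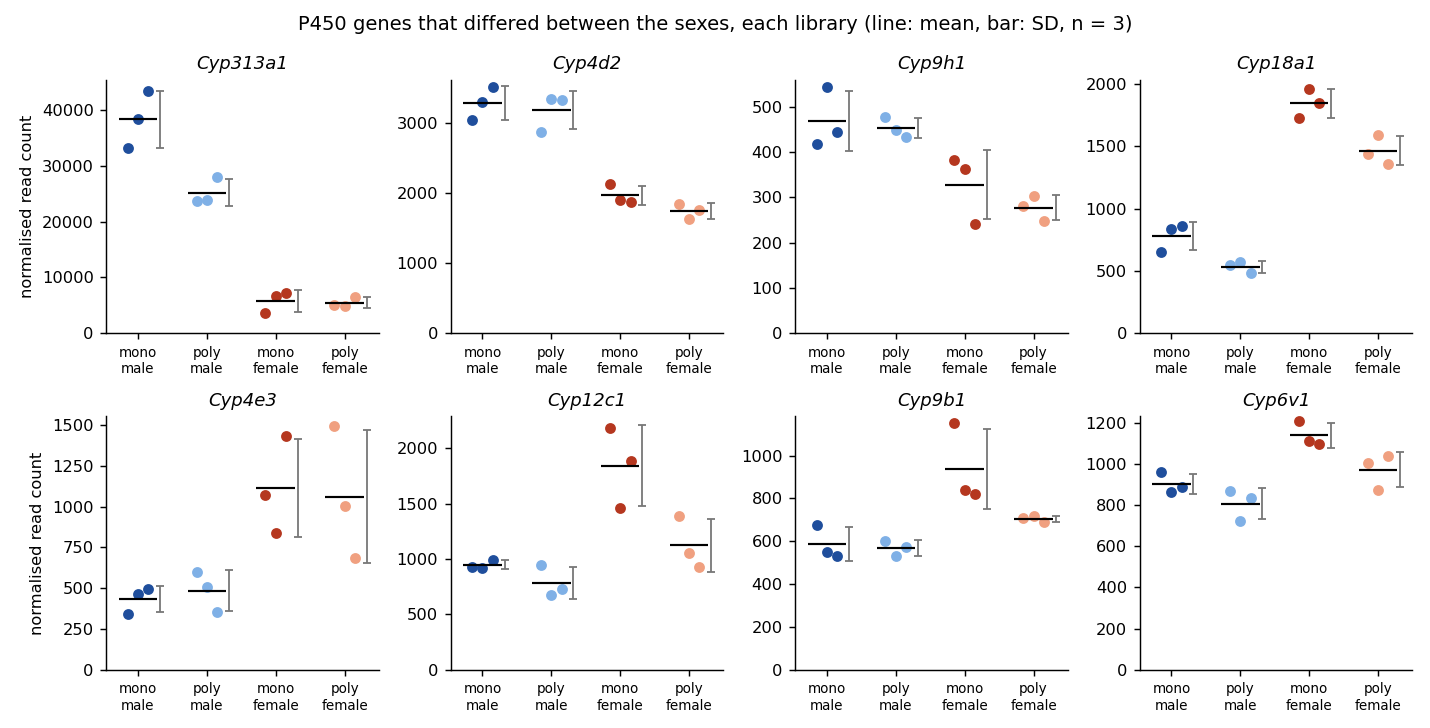
Signal (normalised read count, axis from 0) of the 8 P450 genes called between the sexes under every alternative, with 1 point per library, a line at the group mean and a bar of 1 SD (n = 3). Cyp313a1, Cyp4d2 and Cyp9h1 are higher in every male library than in any female one, Cyp18a1, Cyp4e3 and Cyp9b1 are lower in every male library, and Cyp12c1 and Cyp6v1 are lower with overlap.

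The comparison of mating systems asked whether populations bred under monogamy differ from those bred under polygamy. In males 1 of 74 P450 genes passed the limma test, against 0.643% of all genes tested (0.539% higher under monogamy). This was Cyp318a1, an X-linked gene of the CYP4 clan. Its signal was 155, 152 and 137 in monogamous males and 86.3, 81.0 and 91.9 in polygamous males. All monogamous libraries were higher (log2 fold change 0.77, SE 0.12, limma adjusted p = 0.032). In females it was 129, 138 and 105 under monogamy and 102, 89.1 and 99.8 under polygamy, again without overlap but short of the threshold (log2 fold change 0.35, SE 0.12, limma adjusted p = 0.26). The call in males was lost after upper-quartile rescaling and when any of 5 populations was left out (all but monogamous population 1).

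The next genes by p in males did not pass. Cyp18a1 had 649, 832 and 858 in monogamous males and 544, 573 and 481 in polygamous males, with no overlap (log2 fold change 0.54, SE 0.12, limma adjusted p = 0.075). Cyp6a8, a CYP3 clan gene raised in DDT-resistant strains, had 3491, 3069 and 2609 in monogamous males and 4710.2, 4028 and 5489 in polygamous males (log2 fold change -0.63, SE 0.15, limma adjusted p = 0.091). Its monogamous values were the lower ones, without overlap. Cyp28d2 (-0.45), Cyp6t3 (-0.55, with 685, 786 and 791 in monogamous and 1027, 1226 and 1074 in polygamous males) and Cyp4g15 (0.51) followed, with limma adjusted p of 0.10, 0.10 and 0.11. Over the 74 genes 46 log2 differences were above 0 and 28 below, with a median of 0.06, against -0.02 over all genes. Monogamous and polygamous males did not overlap for 22 P450 genes (29.7%), 15 higher and 7 lower under monogamy, against 31.8% of all genes, 13.7% higher and 18.1% lower. The number of calls in males rested on the fit, for P450 genes and for all genes. DESeq2 on the recovered reads called 8 P450 genes (10.8%) and 3.79% of all genes, and library weights gave 17 (23%) and 17.2%. Without the female library that stood apart 9 P450 genes (12.2%) and 8.15% of all genes were called, and without both libraries of monogamous population 1 these were 7 (9.46%) and 4.41%. The female library that stood apart entered the comparison of males only through the spread shared by the groups.

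In females no P450 gene passed, and no gene of the whole table did (0%). At an unadjusted p under 0.05 stood 22 of 74 P450 genes, against 17.7% of all genes, and edgeR called 0 P450 genes and DESeq2 4, against 2.55% of all genes with DESeq2. Cyp6d2, which shares exon positions with nsr on the opposite strand, came closest. It had 799, 386 and 636 in monogamous females and 213, 186 and 138 in polygamous females. All monogamous libraries were higher, the first population most (log2 fold change 1.72, SE 0.28, limma adjusted p = 0.15). Cyp4ac2 of the CYP4 clan had 1237, 1062 and 1134 in monogamous females and 614, 404 and 647 in polygamous females, also without overlap (log2 fold change 1.07, SE 0.19, limma adjusted p = 0.15). Without the library that stood apart the log2 difference of Cyp6d2 was 1.49 and that of Cyp4ac2 1.01.

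Cyp28d2 (-0.42), Cyp12c1 (0.71), Cyp9b2 (0.71) and Cyp6d4 (0.41) were next in females, with limma adjusted p of 0.23, 0.23, 0.23 and 0.23. Over the 74 genes 50 log2 differences were above 0 and 24 below, with a median of 0.16, against -0.03 over all genes. The P450 median was 0.09 without the female library that stood apart. Groups did not overlap for 22 P450 genes (29.7%), 16 higher and 6 lower under monogamy, against 23.6% of all genes, 8.9% higher and 14.7% lower. Without the library that stood apart these were 32 P450 genes (43.2%), 22 higher and 10 lower, and 36.7% of all genes, with 1 monogamous library fewer to overlap. Fat body marker sums were also higher in all monogamous female libraries than in all polygamous ones, as given above, and yolk protein genes made up most of them. The marker apolpp had 77685, 189127 and 189545 in monogamous females and 159727, 130412 and 115848 in polygamous females, with overlap. Lsp2 and to overlapped as well, and fit did not. The part of fat body markers in these differences was not tested.

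Over population means, where the 2 sexes of a population count once, no P450 gene and no other gene passed (0%). At an unadjusted p under 0.05 stood 22 P450 genes, against 14.2% of all genes. For this comparison edgeR and DESeq2 were run on the summed reads of the 2 sexes, not on means of log2 values. On these sums edgeR called 0 P450 genes and DESeq2 8, against 3.65% of all genes with DESeq2. The smallest p-values belonged to Cyp6d2 (1.15), Cyp4ac2 (0.83), Cyp318a1 (0.56), Cyp28d2 (-0.44), Cyp18a1 (0.44) and Cyp9b2 (0.58), with limma adjusted p from 0.25 to 0.29. The population means did not overlap for 22 P450 genes, 16 higher and 6 lower under monogamy, against 28.7% of all genes, 11.4% higher and 17.3% lower.

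In each sex taken alone, the mating systems separated without overlap and in the same direction for 11 P450 genes (14.9%). The 8 higher under monogamy were Cyp18a1, Cyp28a5, Cyp304a1, Cyp318a1, Cyp4ac2, Cyp6d4, Cyp6t1 and Cyp9b2, against 3.61% of all genes. The 3 lower under monogamy were Cyp28d2, Cyp6a20 and the pseudogene Cyp6a15Psi, against 6.04% of all genes. Without the female library that stood apart 10 were higher and 3 lower, against 4.78% and 8.71% of all genes. Cyp6a20, which is known for its link to male aggression, had 3396, 3619 and 3067 in monogamous males and 3639, 3875 and 3705 in polygamous males. In females it had 2594, 3419 and 3343 under monogamy and 3575, 3608 and 3813 under polygamy. Its differences were below 0 in both sexes and did not pass (limma adjusted p = 0.67 in males and 0.28 in females). Cyp28d2 had 229.8, 214 and 184 in monogamous males and 306.02, 262 and 292 in polygamous males, and 254, 288 and 253 in monogamous females and 366, 327 and 375 in polygamous females. Its monogamous libraries were the lower ones in each sex. Cyp28a5 averaged 8429.7 ± 462 in monogamous males, 7061 ± 349.8 in polygamous males, 8149.6 ± 847 in monogamous females and 7031 ± 199.8 in polygamous females (SD, n = 3 each). Cyp6d4 averaged 458 ± 39.8 in monogamous males, 385 ± 25.1 in polygamous males, 565 ± 45.3 in monogamous females and 426 ± 61.1 in polygamous females. Because the 2 sexes share their populations, agreement between them does not add independent populations.

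**Figure D4:**
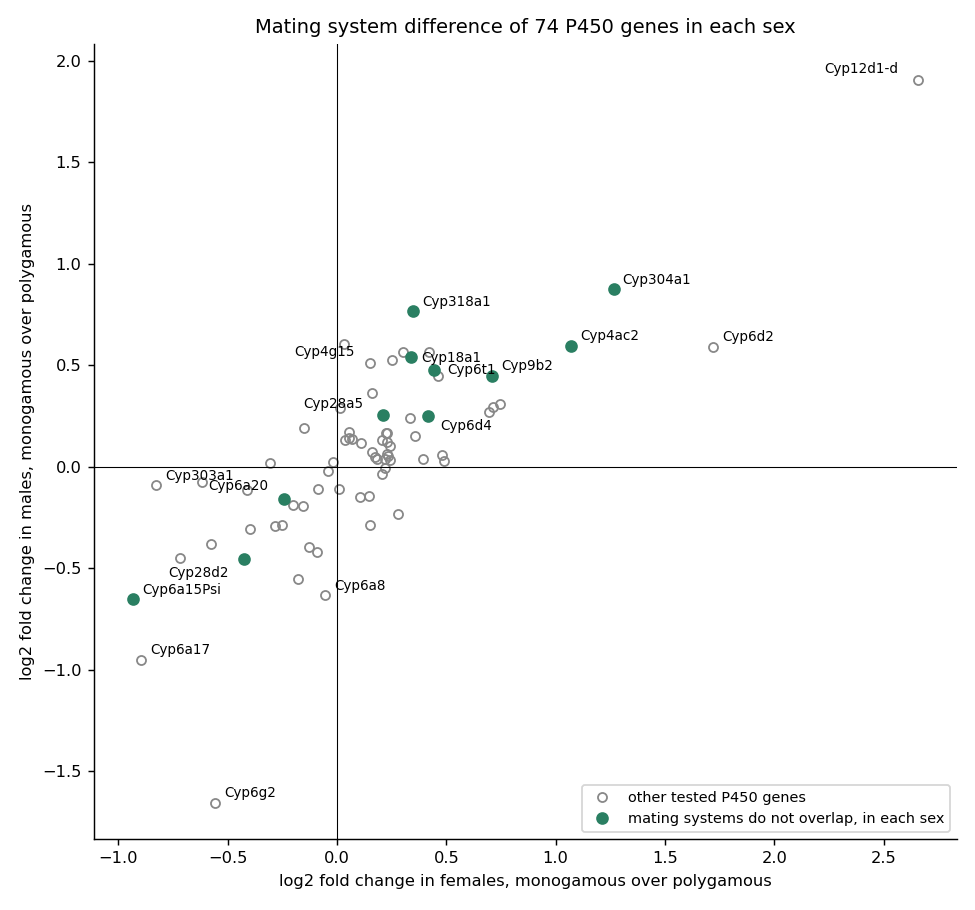
Log2 difference between monogamous and polygamous populations for the P450 genes, with females on the horizontal and males on the vertical axis. Filled symbols mark the 11 genes whose mating systems do not overlap in each sex, and Cyp318a1 is the 1 gene called in males.

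The mating difference was also compared between the sexes. No P450 gene and no other gene passed the limma test of the interaction (0%). At an unadjusted p under 0.05 stood 3 P450 genes, against 5.45% of all genes. Neither edgeR nor DESeq2 called a P450 gene, while DESeq2 called 0.596% of all genes. The smallest p-values belonged to Cyp6d2 (-1.13), Cyp6a8 (-0.58), Cyp318a1 (0.42), Cyp4ac3 (0.55), Cyp4ac1 (-0.46) and Cyp6t3 (-0.38), where values are the log2 mating difference in males minus that in females, with adjusted p of 0.73 or more. Cyp6d2 had 236, 228 and 197 in monogamous males and 199.5, 126 and 123 in polygamous males. The highest polygamous male library lay just above the lowest monogamous one, while the female groups did not overlap. For Cyp6d2 the mating difference was 0.59 in males and 1.72 in females, and the SE of their difference was 0.39. Over the 74 genes 29 values were above 0 and 45 below.

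Levels of several P450 genes differed widely among the 6 populations. For 20 of 74 P450 genes (27%) the highest and lowest of the 6 population means lay 1 log2 unit or more apart, against 14.7% of all genes, and the median range was 0.69 over the P450 genes and 0.41 over all genes. Monogamous population 1, whose female library stood apart, was the highest or the lowest for 14 of these 20 genes. Over the other 5 populations 13 P450 genes (17.6%) had such a range, against 6.98% of all genes, with medians of 0.55 and 0.25. For 2 genes (2.7%) 1 population stood at least 1 log2 unit from all others in both sexes, against 0.596% of all genes. In Cyp12d1-d, of the mitochondrial clan, the second polygamous population had 5.47 in males and 2.66 in females. The other 10 libraries had 44.9 to 321. The lowest of these values rests on 2 reads, so no fold is given. Its log2 mating differences did not pass and rested on that population: they were 1.90 in males and 2.66 in females with it, and 0.33 in males and 1.07 in females without it. Its neighbour Cyp12d1-p is a near-identical copy, so reads may be split between them, and Cyp12d1-p had 146 in males and 132 in females of that population. Cyp12d1-p averaged 140 ± 25.3 in monogamous males, 177 ± 70.1 in polygamous males, 159.6 ± 21.3 in monogamous females and 147 ± 44.1 in polygamous females (SD, n = 3 each).

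Cyp6a17, which is known for its effect on temperature preference, was low in the third monogamous population. That population had 622 in males and 701 in females, and the other 10 libraries had 2382 to 4956. Cyp6g2 was lowest in the first monogamous population, with 254 in males and 481 in females. The range of its population means was 5.87-fold, and its log2 mating difference in males, -1.65, did not pass (limma adjusted p = 0.20). Cyp304a1 ranged 4.63-fold and Cyp6d2 3.32-fold, both highest in the first monogamous population, whose female library stood apart, and lowest in the third polygamous one. Cyp9f2 averaged 9486 ± 4658 in monogamous males, 10025 ± 2274 in polygamous males, 7944 ± 3103 in monogamous females and 8808 ± 1819.8 in polygamous females (SD, n = 3 each). It ranged 2.57-fold and was lowest in the first monogamous population. The most even gene was Cyp4d2, at 1.11-fold.

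**Figure D5:**
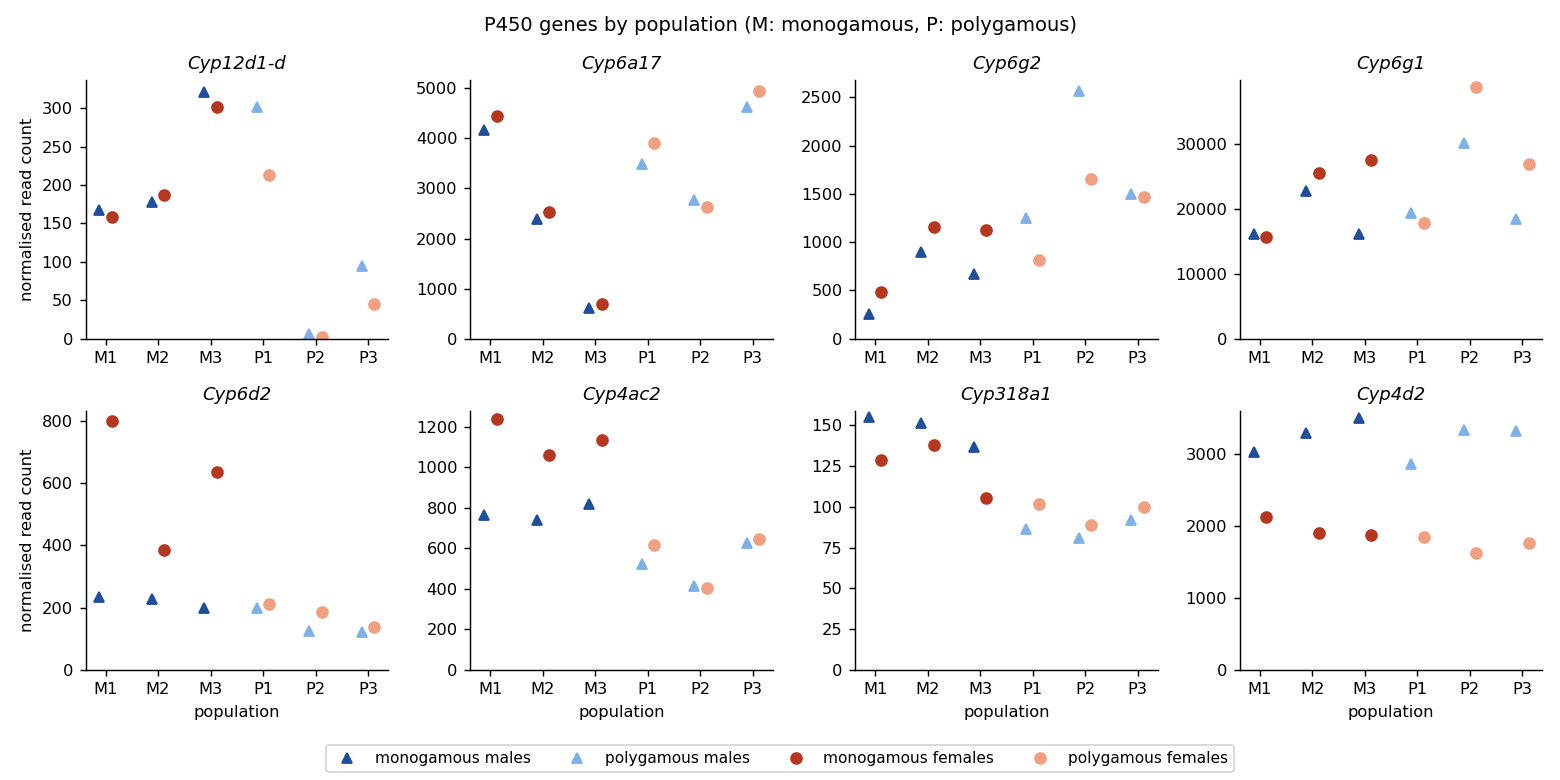
Signal (normalised read count, axis from 0) of 8 P450 genes in each of the 6 populations, M for monogamous and P for polygamous, with triangles for males and circles for females. Cyp12d1-d is low in both libraries of the second polygamous population and Cyp6a17 in both of the third monogamous one.

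Neighbouring P450 genes did not always differ alike. Between the sexes 10 of the 16 runs had all members on the same side of 0, and 6 had members on both sides. All members among the 75 genes were called in 2 runs: Cyp4ae1 and Cyp4d2 on X were higher in males, and Cyp18a1 and Cyp308a1 on X were lower. In the annotation the first of these runs holds 3 P450 genes, of which 2 were among the 75. Runs were built from Cyp names, so P450 genes with names of their own, such as phtm, were not counted as members. In the run of Cyp4ac1, Cyp4ac2 and Cyp4ac3 on 2L, log2 mating differences in females were 0.49, 1.07 and -0.62. In the run of 8 genes on 2R that holds Cyp6a8, Cyp6a17 and Cyp6a20, 4 mating differences in males were above 0 and 4 below. The log2 mating differences of Cyp6g1, Cyp6g2 and Cyp6t3 were below 0 in both sexes, and none was called. For Cyp6g1 in females the difference was -0.25, and it was 0.025 without the second polygamous population and 0.0054 without the female library that stood apart.

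Few of the genes that serve or control P450 enzymes were called. The 6 redox partners, among them Cpr, the reductase that feeds electrons to microsomal P450 enzymes, and dare, Fdx1 and Fdx2, which serve mitochondrial ones, gave no call in any comparison. Cpr averaged 16708 ± 818 in monogamous males, 16096 ± 741 in polygamous males, 16393 ± 3965 in monogamous females and 14591 ± 741 in polygamous females (SD, n = 3 each). Of 8 regulators, which include the xenobiotic receptor Hr96 and the oxidative stress factor cnc, 2 were higher in males: Keap1, the partner that restrains cnc (log2 0.35, limma adjusted p = 0.0021), and tgo, a partner of bHLH-PAS factors (log2 0.24, adjusted p = 0.040). The Keap1 call held under all 15 alternatives and the tgo call under 6 of them. For tgo it was lost after TMM rescaling (log2 0.13, limma adjusted p = 0.29), among others. It held without the female library that stood apart (log2 0.17, limma adjusted p = 0.0025). Of 3 ecdysone-making P450 genes that carry their own names, phtm was higher in males (log2 0.57, adjusted p = 0.026), and sad and shd did not pass. The phtm call held under 8 of the 15 alternatives and was lost after TMM rescaling, among others (limma adjusted p = 0.072). No gene of these lists was called between mating systems. Among all genes 29.5% were called between the sexes and 0.643% between mating systems in males.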

How the data were processed

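The 12 head libraries were analysed from the deposited table. Head RNA was isolated with RNAzol and sequenced after Illumina mRNA-Seq preparation, per the labels. Tools named in the submitters' processing notes are TopHat2, genome build BDGP5, HTSeq and DESeq2, with no version given. The deposited signal is the read count of each gene scaled by the authors with 1 factor per library, with 2 decimals and totals of 45916924 to 45943793. Whole reads were recovered for 100% of values at a tolerance of 0.1 reads. Symbols, arms and exon lengths came from a later annotation, so no coordinates are given.

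Values were tested as log2(value + 1) for the 10568 genes with a mean of 10 or more, with limma 3.58.1 (trend) in R 4.3.3, 1 mean per group over 12 libraries, or over 6 population means. Benjamini-Hochberg adjustment ran over all genes tested, with calls under 0.05. Differences are monogamous minus polygamous and male minus female.

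Alternatives were a pseudocount of 10, no filter, TMM and upper-quartile scaling, edgeR 4.0.16 and DESeq2 1.42.0 on the recovered reads, library weights, fewer libraries, omitted populations, and a replicate block. Counts without overlap and ranges over populations without the library that stood apart were added after seeing the data. Same-numbered monogamous and polygamous populations are different populations. Their deviations correlated by -0.12 to 0.15, a range that overlaps the one given next for libraries of the same population. Whether the number stands for anything shared between mating systems was not tested. Male and female libraries share a population per the labels, and their deviations correlated by 0.0908 to 0.474.

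Named genes were all called P450 genes, or the 6 with the smallest p where fewer passed, plus members with a well known role. Others named for ranges or lack of overlap were chosen after their values were seen. The members, lists and tests were chosen with earlier results of these data known. Of other cell types' markers, 1 of 3 Malpighian tubule genes was higher in males, 3 of 6 thoracic muscle genes were lower in males, and none of 4 gut genes or 1 oenocyte gene was called. Of 7 blood cell genes 2 were higher and 1 lower in males, and 2 were higher in monogamous than in polygamous males (28.6%). Among all genes 29.5% were called between the sexes and 0.643% between mating systems in males. Gut marker sums were 259 to 1565 in monogamous males, 266 to 763 in polygamous males, 304.00 to 323 in monogamous females and 249 to 698 in polygamous females, with Jon65Aiii and alphaTry high in the second population of monogamous males and of both polygamous sexes. Cyp1 and Cyp40 were called in no comparison.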

Additional observations from a re-analysis of the deposited data

How the results depend on the processing

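No difference of a P450 gene called between the sexes, or of the 6 with the smallest p in the other comparisons, changed sign. The mating difference of Cyp6g1 in females did: -0.25 in the full fit, it ranged from -0.54 to 0.025 over omissions of 1 population, highest without the second polygamous population, and was 0.0054 without monogamous population 1 or its female library alone. In males, 1 P450 gene was called between mating systems (1.35%), against 0.643% of all genes. After upper-quartile rescaling 0 were called, against 0.303% of all genes. DESeq2 called 8 (10.8%, against 3.79%), library weights gave 17 (23%, against 17.2%), and only the male libraries gave 5 (6.76%, against 4%). Leaving out 1 population or 1 library gave 0 to 9 calls in males. There were 7 without monogamous population 1 (9.46%, against 4.41% of all genes) and 9 without its female library (12.2%, against 8.15%). With the replicate number as a block 2 were called (2.7%, against 0.956% of all genes), Cyp318a1 and Cyp6g2 (limma adjusted p = 0.017). In females the number was 0, with 4 under DESeq2 (5.41%, against 2.55% of all genes) and 5 with library weights (6.76%, against 2.07%). Over population means it was 0, with 8 under DESeq2 on reads summed over the sexes (10.8%, against 3.65% of all genes). Library weights gave 8 as well (10.8%, against 5.15%). Between the sexes it was 24 (32.4%, against 29.5% of all genes), and 15 to 30 over omissions of 1 population or 1 library. The 15 came without the second polygamous population (20.3%, against 16.2%) and the 30 without monogamous population 1 (40.5%, against 49.6%). Over the 5 populations other than monogamous population 1, 13 in place of 20 P450 genes had a range of 1 log2 unit or more. Among all genes the share was 6.98% in place of 14.7%. With the population as a block 32 P450 genes were called between the sexes (43.2%, against 29.7% of all genes), and Cyp308a1 and Cyp4c3 no longer passed. No alternative called an interaction for a P450 gene. Among all genes DESeq2 called 0.596%, library weights 0.766%, and the fit without the female library that stood apart and the population block 0.0852% each. Omitting the female library of monogamous population 1 could not be fitted for population means, and the fit with only the compared libraries is the same fit for sex, interaction and population means. Precision is limited by 3 populations per mating system, and low genes such as Cyp4d1 also by read number.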
